A study of Homo sapiens with 4 samples.

Results

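The POU5F1 family comprised 4 of the 21357 genes annotated on the expression array used (Affymetrix U133 Plus 2.0), and was read by 4 of its 54613 probe sets, chosen because their annotation holds the symbol POU5F1, POU5F1B, POU5F1P3 or POU5F1P4. Their transcripts were measured in total RNA of 320-IWR cells (2 arrays) and of COLO-320DM cells (2 arrays). COLO-320DM is a human colorectal cancer cell line, and 320-IWR is a tankyrase inhibitor-resistant subline that was selected from it by continuous treatment with IWR-1, so both lines share the COLO-320DM background and differ in this selection. IWR-1 blocks tankyrase, a poly(ADP-ribose) polymerase that promotes Wnt/β-catenin signaling. Clones were later isolated from 320-IWR, and no cloning step is described for 320-IWR itself. Whether IWR-1 was present when RNA was taken is not given in the sources used here. No source states that the 2 arrays of a line came from separate cultures, so the p-values reflect array-to-array spread alone, and this may be technical.

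POU5F1 encodes OCT4, a transcription factor with a POU domain that, together with SOX2 and NANOG, maintains pluripotent stem cells and germ cells and is silenced in most differentiated tissues. Its messenger RNA was copied back into the genome several times during evolution. POU5F1B is such a processed copy, lies near MYC and can encode an OCT4-like protein. POU5F1P3 and POU5F1P4 are annotated as transcribed pseudogenes. In the RefSeq gene table of GRCh38.p14 the 4 genes lie on chromosomes 6 (POU5F1), 8 (POU5F1B), 12 (POU5F1P3) and 1 (POU5F1P4). OCT4 binds the octamer sequence, often beside a site for SOX2, and NANOG carries such a composite site in its promoter.

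The sites shown here are those found in promoters of measured genes of the lists described later, by the letters of an OCT4 motif. They do not show that these genes are OCT4 targets. Promoters were taken from RefSeq (GRCh38.p14, 250 bases before to 50 after the gene start). The capitals mark the octamer, ATGCAAAT or on the other strand ATTTGCAT, and for NANOG the SOX-OCT composite, which is the SOX part CATTGT, any 1 base and the OCT part ATGCAAA in direct succession, on either strand. The composite contains the first letters of the octamer, so that both motifs can overlap, and the match in NANOG is not a full octamer.
NANOG, chr12:7789259-7789318, plus strand, composite 120 bases before the gene start: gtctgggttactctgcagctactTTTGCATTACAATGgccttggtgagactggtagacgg
CDX2, chr13:27969389-27969448, minus strand, octamer 107 bases before the gene start: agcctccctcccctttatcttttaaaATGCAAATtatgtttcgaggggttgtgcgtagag
SFRP2, chr4:153789085-153789144, minus strand, octamer 35 bases before the gene start: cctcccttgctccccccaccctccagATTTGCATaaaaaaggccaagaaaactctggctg
POU5F2, chr5:93741786-93741845, minus strand, octamer 219 bases before the gene start: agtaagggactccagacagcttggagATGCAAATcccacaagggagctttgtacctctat

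The octamer was found in 3 of the 70 measured genes of the lists described later that have a promoter in the table, and in 1.77% of all 34943 promoters. The composite was found in NANOG alone among these 70 genes, and in 3 of all promoters. A match describes letters and is not evidence of binding.

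Intensities were normalized by the authors and are on a linear scale, with a median between 41.1 and 41.9 on the 4 arrays. No detection calls were used, so the distance of a dim value above background is unknown. Precision is limited by having 2 arrays a line. Log2 values correlated over probe sets, which are not independent replicates, with r = 0.991 between the 320-IWR arrays, r = 0.990 between the COLO-320DM arrays, and r between 0.980 and 0.988 across the lines. Of 10 colon epithelial markers, CDX2, CDX1, VIL1 and the keratins KRT8, KRT18 and KRT20 were above the array medians on all 4 arrays. EPCAM had 13.5 and 18.1 in 320-IWR cells, against 23.5 and 35.1 in COLO-320DM cells, and CDH1 had 18.3 and 18.8 in 320-IWR cells, against 16.2 and 18.3 in COLO-320DM cells, all below the medians. Of these 10 markers KRT20 was called higher and KRT8 and KRT18 lower in 320-IWR cells, and none of 7 neuroendocrine, 5 leukocyte, 6 fibroblast and 5 endothelial markers was called, where 0.592% of all genes were. The summed intensity of the fibroblast markers was 636 and 1531 in 320-IWR cells, against 659 and 1564 in COLO-320DM cells, and so differed between replicates and little between lines. The replicate difference came mainly from COL3A1, with 278 and 1187 in 320-IWR cells, against 292 and 1193 in COLO-320DM cells. The part of such markers in the results was not tested.

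All 4 probe sets of the family were brighter in 320-IWR cells, at 1190.3 to 2457, against 73.0 to 237 in COLO-320DM cells. Because the family was chosen from this very difference, its values are given as a description and with no test. More cells with the transcript and more transcript per cell cannot be told apart in these bulk samples.

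The probe set 208286_x_at, the only one whose annotation names POU5F1 itself, also names POU5F1B, POU5F1P3 and POU5F1P4. It had intensities of 2391 and 2059.5 in 320-IWR cells, against 237 and 177 in COLO-320DM cells. Both 320-IWR arrays thus lay far above both COLO-320DM arrays. The means were 2225 ± 234 and 207 ± 41.9 (SD, n = 2 each), and the log2 fold change was 3.44 (standard error 0.19), or 10.8-fold. The lowest 320-IWR value was still 8.70-fold the highest COLO-320DM value.

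POU5F1B, the copy with an open reading frame, was read by 214532_x_at, with 2457 and 2427 in 320-IWR cells, against 229.9 and 184 in COLO-320DM cells. This probe set had the closest 320-IWR arrays of the family, with a mean of 2442 ± 21.6 against 207 ± 32.3 in COLO-320DM cells (SD, n = 2 each). Its log2 fold change was 3.57 (standard error 0.15), or 11.9-fold.

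The pseudogene POU5F1P4 was read by 210905_x_at, with 1781 and 1712 in 320-IWR cells, against 152 and 123 in COLO-320DM cells. The means were 1746 ± 48.6 and 137 ± 20.6 (SD, n = 2 each), and the lines stood 3.68 apart on the log2 scale (standard error 0.15), or 12.8-fold. The other pseudogene, POU5F1P3, was read by 210265_x_at, which had the largest fold of the family. It had 1190.3 and 1324 in 320-IWR cells, against 96.3 and 73.0 in COLO-320DM cells. Its means were 1257 ± 94.5 and 84.7 ± 16.5 (SD, n = 2 each), and the lines stood 3.90 apart on the log2 scale (standard error 0.18), or 15.0-fold.

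**Figure D1:**
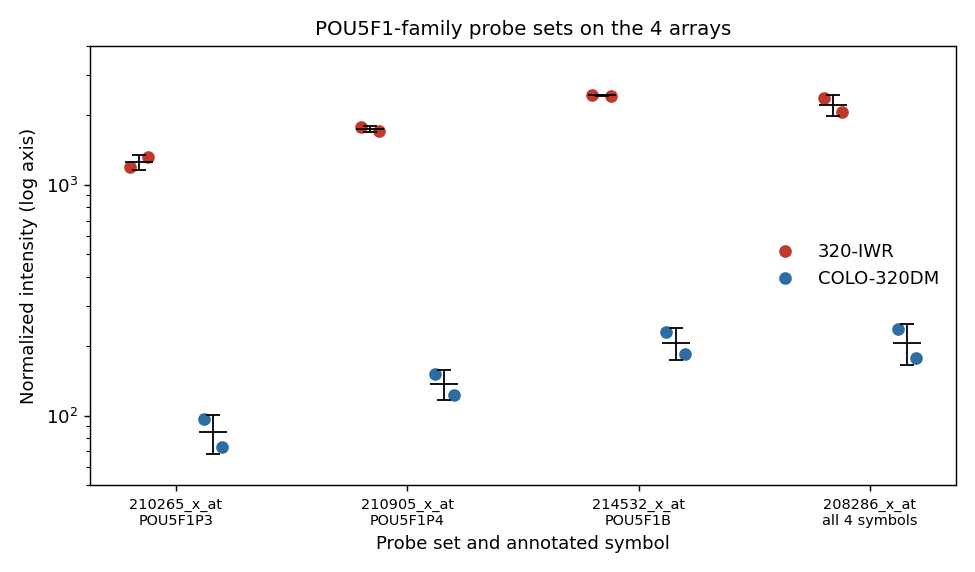
Normalized intensity (log axis) of the 4 POU5F1-family probe sets on each array, with 320-IWR in red left of COLO-320DM in blue, 1 point per array, and the mean ± SD in black (n = 2). The red points lie between 1190.3 and 2457 and the blue points between 73.0 and 237, with no overlap in any probe set.

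Ordered by log2 fold change over all probe sets, the family stood at ranks 7 (POU5F1P3), 10 (POU5F1P4), 14 (POU5F1B) and 19 (all 4 symbols) of 54613. All 4 met the criterion used for other genes, a limma adjusted p under 0.05 with at least a 2-fold difference, which 0.37% of probe sets met in either direction and 0.112% upward. The arrays of the lines did not overlap in any of the 4, which held upward for 19.5% of all probe sets. The median log2 fold change of the family was 3.62, and that of all probe sets was 0.015. Nothing is read from these counts, since this contrast chose the family.

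The arrays of a line differed in the same direction for all 4 probe sets in COLO-320DM cells and not in 320-IWR cells. In COLO-320DM cells replicate 1 was above replicate 2 in all 4, with log2 differences of 0.31 to 0.42. The median of the same difference over all probe sets was 0.0024. In 320-IWR cells the 2 arrays differed by -0.15 (POU5F1P3) to 0.22 (all 4 symbols), replicate 1 minus replicate 2. The order of the folds was the same in both same-numbered pairs of arrays. In the replicate 1 pair the log2 fold changes were 3.63 for POU5F1P3, 3.55 for POU5F1P4, 3.42 for POU5F1B and 3.34 for the probe set of all 4 symbols. In the replicate 2 pair they were 4.18, 3.80, 3.72 and 3.54 in that order. Neighbours in this order differed little. The fold of the POU5F1P3 probe set exceeded that of the POU5F1P4 probe set by 0.23. The fold of the POU5F1P4 probe set exceeded that of the POU5F1B probe set by 0.11. The probe set of all 4 symbols stood at -0.13 against POU5F1B. These steps were no larger than the upper end of the spread of single probe sets between replicate arrays, which was 0.16 to 0.23 (SD of log2 values). That spread includes shifts that the probe sets share. In the replicate 1 and replicate 2 pairs the steps were 0.077 and 0.38, 0.13 and 0.082, and -0.081 and -0.18, in the order given. The ends of the order lay 0.47 apart.

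All 4 probe sets end in _x_at, the manufacturer's mark for sets that hold probes able to match other transcripts. The processed copies are close to POU5F1 in sequence, so how much of the signal came from each of the 4 genes cannot be told apart. Of the 4207 probe sets with this ending, 13 (0.309%) were called higher in 320-IWR cells, the 4 of the family among them. POU5F2, the other gene of the same POU class, has a probe set of its own and no shared annotation. It had 25.8 and 29.7 in 320-IWR cells, against 21.3 and 24.3 in COLO-320DM cells (log2 fold change 0.28, limma adjusted p = 0.682), and its octamer is shown above.

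No gene beside the 4 loci passed the test by any of its probe sets, but 1 of them, LRATD2, was far lower in 320-IWR cells by 1 of its probe sets. The 5 nearest genes on each side with a probe set of their own were taken for each locus, 40 genes in all, each read first by its brightest probe set. By these, limma called 0 of the 40, and 0 had an unadjusted p under 0.05, where 0.592% and 12.3% of all 19775 genes did (0.192% were called higher and 0.399% lower). By the brightest probe sets a 2-fold difference was found in 0 of the 40 and in 2.8% of all genes. Their log2 fold changes lay between -0.32 and 0.30, with a median of -0.0061, against 0.017 over all genes. All 72 probe sets of the 40 genes gave a wider range, -2.36 to 0.37. Limma called 0 of these 72, 7 had an unadjusted p under 0.05 and 1 differed at least 2-fold, against 9.71% and 1.94% of all probe sets.

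At the POU5F1 locus on chromosome 6 the log2 fold changes ranged from -0.22 to 0.13 by the brightest probe sets and from -0.62 to 0.13 by all 19, with HLA-C, whose _x_at probe sets may also match other class I genes, the lowest (-0.62, limma adjusted p = 0.428). TCF19, a cell-cycle related gene beside POU5F1, had 239.6 and 278 in 320-IWR cells, against 206 and 269.5 in COLO-320DM cells. HLA-B, which encodes a class I antigen-presenting molecule, had -0.22, the lowest at this locus by the brightest probe sets (limma adjusted p = 0.759). Its other probe sets had -0.0098 and -0.44.

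At the POU5F1B locus on chromosome 8 the range was -0.19 to 0.20 by the brightest probe sets and -2.36 to 0.20 by all 15. LRATD2, the nearest measured gene on the lower side, had probe sets that differed from each other. Its brightest had 4303 and 4356 in 320-IWR cells, against 5561 and 4359 in COLO-320DM cells (log2 fold change -0.19, limma adjusted p = 0.883). Its second had 379 and 545 in 320-IWR cells, against 1989 and 2735 in COLO-320DM cells, without overlap. This second probe set was 5.14-fold higher in COLO-320DM cells (log2 fold change -2.36, standard error 0.25, limma adjusted p = 0.0622), opposite in direction to the family. It missed the limit in this fit and passed it with the replicate number as a block (limma adjusted p = 0.0171) and under cyclic loess (0.0432). It did not pass with any 1 array left out, at log2 fold changes of -2.62 to -2.10. The remaining, dim probe set of the gene had 0.080. LRATD2 was singled out after its values were seen. The proto-oncogene MYC was very bright in both lines, with 19698 and 21695 in 320-IWR cells, against 17068 and 18942 in COLO-320DM cells. Both 320-IWR arrays were above both COLO-320DM arrays, with a log2 fold change of 0.20 (standard error 0.13, limma adjusted p = 0.794). These values lie near the highest intensity of any probe set, 22475, and whether the signal was compressed there was not tested. The long non-coding RNA gene PVT1, which follows MYC on the chromosome, had 93.9 and 110.2 in 320-IWR cells, against 101 and 102 in COLO-320DM cells, and its arrays overlapped.

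At the POU5F1P3 locus on chromosome 12 the range was -0.11 to 0.30 by the brightest probe sets, with FAM90A1 the highest (limma adjusted p = 0.694), and -0.11 to 0.36 by all 19. At the POU5F1P4 locus on chromosome 1 it was -0.32 to 0.24 by the brightest and -0.32 to 0.37 by all 19, with MSTO1, which encodes the mitochondrial protein misato, the lowest (limma adjusted p = 0.536).

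**Figure D2:**
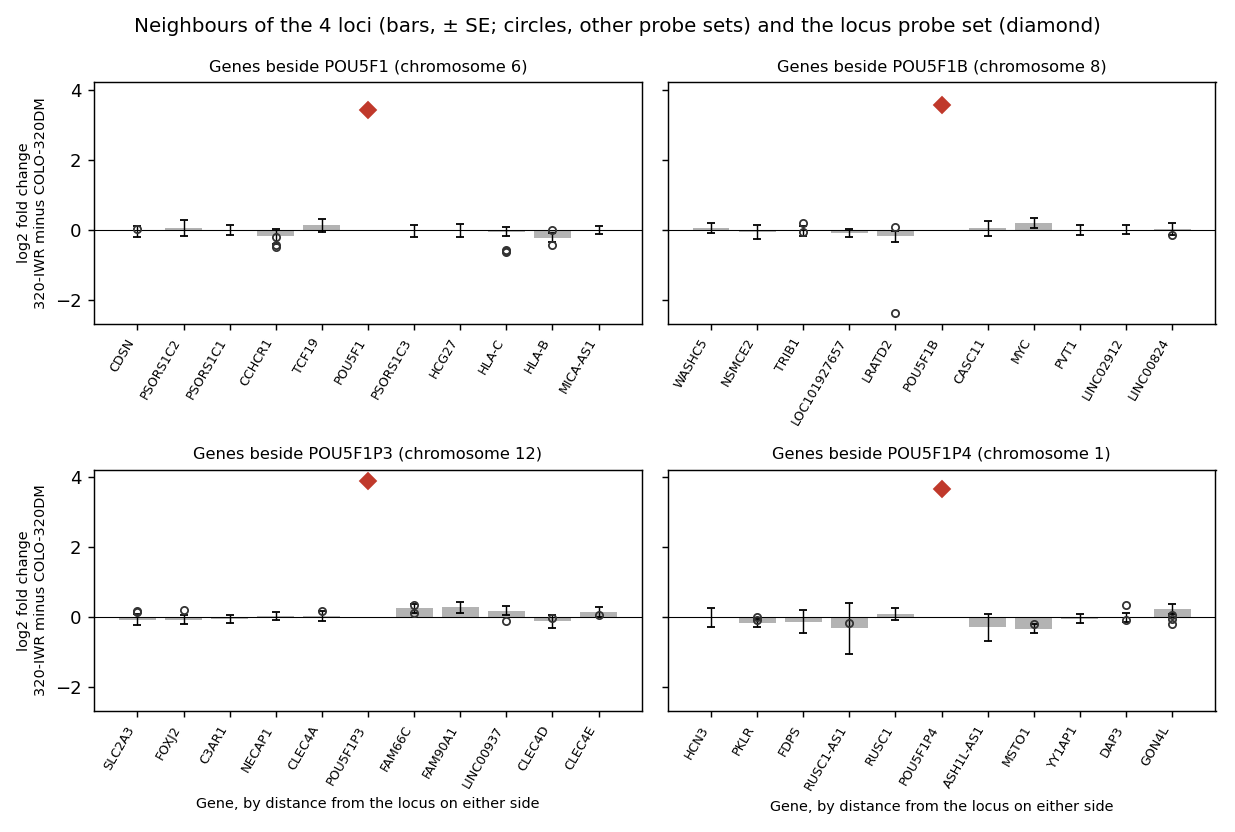
Log2 fold change, 320-IWR minus COLO-320DM, of the 5 nearest measured genes on each side of the 4 loci by their brightest probe set (bars, ± standard error from limma) and by their other probe sets (open circles). The probe set annotated to the locus is a red diamond, and it may also match the other loci. For POU5F1 this is the probe set of all 4 symbols. The bars lie between -0.32 and 0.30, 1 circle of LRATD2 lies at -2.36, and the diamonds between 3.44 and 3.90.

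None of the measured partners of OCT4 in the pluripotency network passed the test. Of 18 pluripotency transcription factors limma called 0, and an unadjusted p under 0.05 was found for 1, SALL2, where 0.592% and 12.3% of all genes did so. The median log2 fold change of this list was -0.0039. SOX2, which binds DNA beside OCT4, had 38.9 and 41.9 in 320-IWR cells, against 37.3 and 43.8 in COLO-320DM cells, and its arrays overlapped. Its dimmer probe sets had log2 fold changes of 0.25 (without overlap, limma adjusted p = 0.684), 0.012 and 0.055. NANOG, whose composite site is shown above, had 27.2 and 27.3 in 320-IWR cells, against 21.2 and 23.6 in COLO-320DM cells. Its 320-IWR arrays were both the higher ones, by 0.28 on the log2 scale (limma adjusted p = 0.596), and its second, dimmer probe set had 0.057. The reprogramming factor gene KLF4 had 18.4 and 18.5 in 320-IWR cells, against 19.4 and 18.5 in COLO-320DM cells. These are all dim values, whose distance above background is unknown. The largest differences in the list were 0.34 for KLF5, a factor of stem and intestinal crypt cells, and -0.66 for SALL2, a zinc finger relative of SALL4. SALL2 had 461 and 441 in 320-IWR cells, against 696 and 726 in COLO-320DM cells, without overlap (limma adjusted p = 0.163).

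Of 24 measured targets and markers of pluripotent cells, only PODXL passed the test and rose (limma, adjusted over all probe sets), where 0.592% of all genes passed. An unadjusted p under 0.05 was found for 3, PODXL, GAL and DNMT3B, and for 12.3% of all genes. PODXL encodes podocalyxin, a sialomucin that carries the TRA-1-60 and TRA-1-81 epitopes of pluripotent cells and is also made by kidney podocytes, vessels and carcinomas. Its intensities were 836 and 978 in 320-IWR cells, against 102 and 159 in COLO-320DM cells. All 320-IWR values thus exceeded all COLO-320DM values, and the log2 fold change was 2.83 (standard error 0.25, limma adjusted p = 0.0397). The call was lost without COLO-320DM replicate 1 (limma adjusted p = 0.0717) and kept without COLO-320DM replicate 2 (0.0499). It was also lost without 320-IWR replicate 1 (0.294) and without 320-IWR replicate 2 (0.315). In those last fits limma called 0 of all probe sets, with 3756 and 3502 at an unadjusted p under 0.05. GAL, which encodes the neuropeptide galanin, had 2144 and 4094 in 320-IWR cells, against 599 and 1631 in COLO-320DM cells. Replicate 2 was far above replicate 1 in each line, and 320-IWR was higher in both same-numbered pairs. The log2 fold change of 1.58 had a standard error of 0.57 (limma adjusted p = 0.472). It was 0.86 without COLO-320DM replicate 1, 2.31 without COLO-320DM replicate 2, 2.05 without 320-IWR replicate 1 and 1.12 without 320-IWR replicate 2. In a fit blocked by replicate number the limma adjusted p was 0.0539. A dimmer probe set of GAL had 57.1 and 61.3 in 320-IWR cells, against 37.3 and 28.7 in COLO-320DM cells (log2 fold change 0.86, limma adjusted p = 0.194). The de novo DNA methyltransferase gene DNMT3B had the most negative value of the list, -0.40, with 189 and 208 in 320-IWR cells, against 251 and 272 in COLO-320DM cells (limma adjusted p = 0.414).

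The RNA-binding protein genes LIN28A and LIN28B, which hold back the maturation of let-7 microRNAs, had very dim values. LIN28A had 7.34 and 6.45 in 320-IWR cells, against 5.75 and 4.98 in COLO-320DM cells, and LIN28B had 6.14 and 6.29 in 320-IWR cells, against 6.71 and 6.71 in COLO-320DM cells. SFRP2, a secreted Wnt modulator with an octamer in its promoter, had 58.9 and 53.1 in 320-IWR cells, against 49.0 and 43.8 in COLO-320DM cells (log2 fold change 0.27, limma adjusted p = 0.660). The median log2 fold change of this list was 0.0036.

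Of 20 lineage genes, listed as ones that OCT4 may keep low in stem cells, limma called 0, against 0.592% of all genes. Whether OCT4 acts on them was not tested. An unadjusted p under 0.05 was found for 1, NES, and for 12.3% of all genes. The median log2 fold change of the list was -0.047. CDX2, the caudal factor of trophectoderm and of intestine, whose promoter holds the octamer shown above, had 2723 and 2790.2 in 320-IWR cells, against 3403 and 3263 in COLO-320DM cells. Both 320-IWR arrays were the lower ones, by -0.27 (standard error 0.12, limma adjusted p = 0.577). The neural factor gene SOX1 had the highest value of the list, 0.49 (limma adjusted p = 0.664). The trophectoderm and germ cell factor gene TFAP2C had the lowest, -1.16 (limma adjusted p = 0.586), with 16.5 and 13.3 in 320-IWR cells, against 55.6 and 19.9 in COLO-320DM cells. Here the difference rested mainly on COLO-320DM replicate 1, without which it was -0.42. The other probe set of TFAP2C had -0.069.

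Of 15 measured regulators that are known to act on POU5F1 transcription, chromatin or protein, limma called 0. An unadjusted p under 0.05 was found for 3, all higher in 320-IWR cells, a count near the 12.3% of all genes. These 3 were MBD3, a subunit of the NuRD repressor complex (log2 fold change 0.58), the maintenance DNA methyltransferase gene DNMT1 (0.53) and the transcription factor gene SP3 (0.40). DNMT1 had 2376 and 2732 in 320-IWR cells, against 1647 and 1898 in COLO-320DM cells, without overlap (limma adjusted p = 0.334). MBD3 had 657 and 832 in 320-IWR cells, against 424 and 576 in COLO-320DM cells (limma adjusted p = 0.487). The DNA demethylation enzyme gene TET2 had the lowest value of the list, -0.31 (limma adjusted p = 0.756).

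Among 12 other measured POU genes limma called 0 by the brightest probe sets, with POU4F1 and POU3F3, 2 in all, at an unadjusted p under 0.05, counts near the 0.592% and 12.3% of all genes. POU4F1, which encodes the sensory neuron factor BRN3A, had 231 and 250.3 in 320-IWR cells, against 101 and 93.7 in COLO-320DM cells. The lines were clearly apart, with a log2 fold change of 1.30 (standard error 0.13), but the adjusted p of 0.0502 missed the limit. This probe set passed it with the replicate number as a block (limma adjusted p = 0.0426), under cyclic loess (0.0436), with equal array medians (0.0442) and after dim probe sets were filtered out (0.0451). With any 1 array left out this probe set had log2 fold changes of 1.24 to 1.36 and missed the limit. Its second probe set, named after its values were seen, passed it, with 225 and 223 in 320-IWR cells, against 87.1 and 87.1 in COLO-320DM cells (log2 fold change 1.36, limma adjusted p = 0.0353), and with any 1 array left out the adjusted p of this probe set was between 0.174 and 0.312. The neural gene POU3F3 had 1305 and 1241 in 320-IWR cells, against 963 and 731 in COLO-320DM cells (log2 fold change 0.60, limma adjusted p = 0.348). POU3F2, of the same POU class, had the lowest value, -0.28 (limma adjusted p = 0.667).

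**Figure D3:**
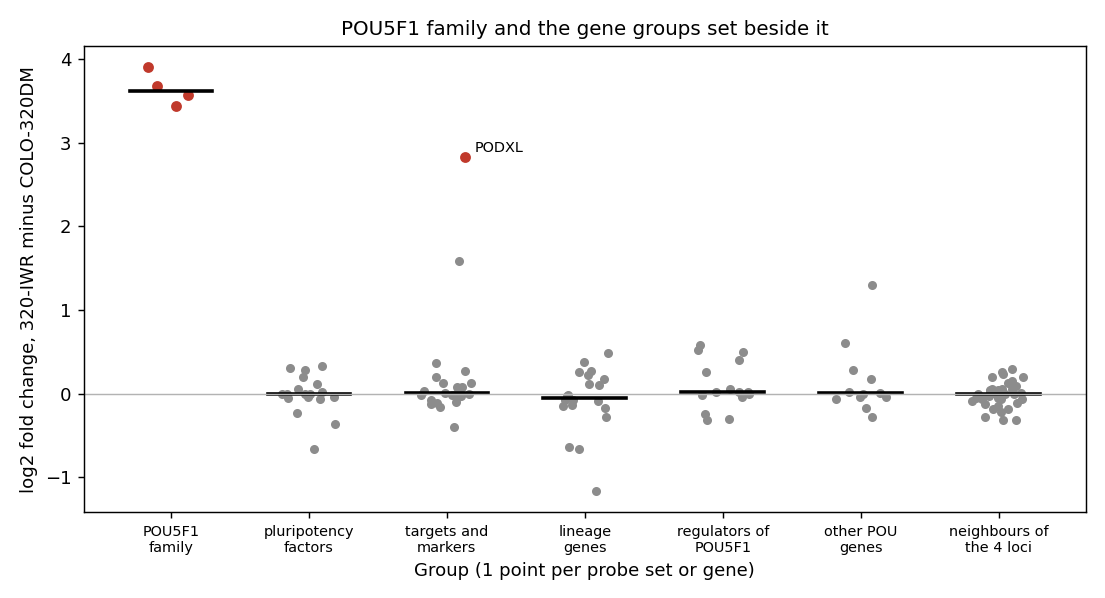
Log2 fold change, 320-IWR minus COLO-320DM, of the 4 family probe sets and of each measured gene of 5 lists and of the loci's neighbours, by its brightest probe set. Red points met the limma criterion and a black bar marks each median, which is 3.62 for the family and between -0.047 and 0.016 in the other groups. The family was chosen from this contrast, so its red points are a description and not a test. PODXL is the only red point outside the family.

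The 6 genes closest in pattern were found by the Euclidean distance, over the 4 arrays, between a gene's log2 values minus their COLO-320DM mean and the family's mean of the same quantity. Since they were picked for a matching difference, their values are a description. The closest was AMIGO2, an adhesion molecule with immunoglobulin-like domains (distance 0.33), with 189 and 146 in 320-IWR cells, against 16.9 and 12.9 in COLO-320DM cells. CTAG2, a cancer/testis antigen, was next (0.34), with 2567 and 2386 in 320-IWR cells, against 180.4 and 160.1 in COLO-320DM cells. The antisense RNA gene MNX1-AS1 (0.50) had 222 and 227 in 320-IWR cells, against 26.2 and 19.9 in COLO-320DM cells. AMIGO2, CTAG2 and MNX1-AS1 had COLO-320DM replicate 1 above replicate 2, as did the family. Next came the glycosyltransferase gene B3GNT5 (0.54), the guanine nucleotide exchange factor gene SPATA13 (0.54) and the desmocollin gene DSC2 (0.59). All of these had COLO-320DM replicate 2 above replicate 1. The match holds for 1 probe set of a gene. Other probe sets had smaller log2 fold changes in B3GNT5 (0.55 and 0.12), SPATA13 (1.38, 0.68 and -0.15) and DSC2 (2.84, 1.87 and 0.31). The second of CTAG2 had 4.43. The matched B3GNT5 probe set was very dim in COLO-320DM cells (7.10 and 7.83). The family's own probe sets had distances of 0.058 to 0.39 from their mean.

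**Figure D4:**
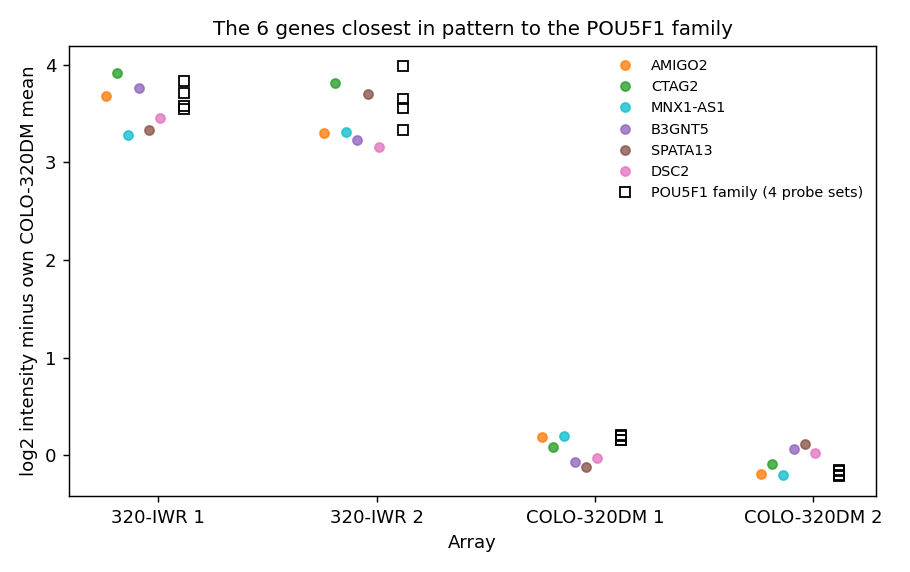
Log2 intensity on each array minus the mean of the COLO-320DM arrays of the same probe set, for the 4 family probe sets (open squares) and the 6 closest genes (coloured points). On the 320-IWR arrays all points lie above 3 and on the COLO-320DM arrays near 0, which was the condition of the choice.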

How the data were processed

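The deposited values are probe set intensities on a linear scale, which the authors made with RMA (named in the submitters' processing notes, no version) and normalized in GeneSpring GX. Arrays were assigned to lines by their labels. After 62 control probe sets were left out, log2 values (floor 1, not reached by the lowest intensity of 3.51) of 54613 probe sets were fitted with limma 3.58.1 in R 4.3.3, with the line as the only term and Benjamini-Hochberg adjustment over all probe sets. A call needs an adjusted p under 0.05 and a 2-fold difference. The annotation gives 41091 probe sets 1 symbol, 1801 several and 11721 none. Only probe sets with 1 symbol name a gene, and the one with the highest mean log2 value stood for it. The fit was run on simulated data with independent noise on each array, and the only condition was that it recovered planted fold changes. This does not check the adjusted p-values.

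The members and lists were chosen with earlier results of these data known. Named genes are the members, SOX2, NANOG, KLF4, MYC, LIN28A, LIN28B and PVT1, up to 4 called genes of each list or else its largest difference in each direction, called neighbours, and the 6 most alike genes. GAL, NES, LRATD2, HLA-C, DNMT1, SP3, POU3F3, CDX2, SFRP2, POU5F2, TCF19 and HLA-B were named after their values were seen. As alternatives, arrays were left out in turn, blocked by replicate number, scaled by cyclic loess or to equal medians, and filtered for dim probe sets. A trended robust prior, an adjusted p under 0.01, omission of the fold limit or of _x_at and _s_at probe sets, and gene means were also tried. Family folds were further taken from arithmetic means, from same-numbered arrays and after adding 32 to intensities.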

Additional observations from a re-analysis of the deposited data

How the results depend on the processing

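The family's median log2 fold change was 3.47 to 3.78 with 1 array left out and fell to 3.39 when 32 was added to all intensities. It could not be computed once _x_at and _s_at probe sets were dropped, since all 4 end in _x_at. In the fit with a replicate block, 576 probe sets were called in place of 202, and 1 other POU gene, POU4F1, in place of 0, while the counts of calls in the other lists and among the neighbours did not change. The neighbours had 4 of 40 genes at an unadjusted p under 0.05 in that fit, in place of 0. Over all probe sets the same fit had 11181 of 54613, in place of 5305. Same-numbered arrays deviated together (r = 0.661 over probe sets), but the labels give no shared batch, so this is a hint from the data and not from the design. Over all probe sets, 0 to 63 were called with 1 array left out, 43 at an adjusted p under 0.01 and 115 once _x_at and _s_at probe sets were dropped. The 0 came without either 320-IWR array, with 3756 and 3502 probe sets at an unadjusted p under 0.05. The targets and markers had 0 to 1 calls with 1 array left out and 0 at an adjusted p under 0.01. The other POU genes had 1 call, POU4F1, under cyclic loess, with equal array medians, after dim probe sets were filtered out, with gene means and, in an alternative chosen after seeing the data, when any probe set of a gene could be called, in place of 0. The pluripotency transcription factors, lineage genes, regulators and neighbours had 0 calls under every alternative run. LRATD2 is read there by its brightest probe set, except with gene means and with any probe set. Its second passed the limit under the block (limma adjusted p = 0.0171) and under cyclic loess (0.0432). It lay between -2.62 and -2.10 and did not pass with 1 array left out. With 1 array left out, SOX2 lay between -0.12 and 0.11 and PVT1 between -0.11 and 0.12, and PVT1 had -0.0076 under cyclic loess. Gene means give no count over probe sets. A line left with 1 array was assumed to vary like the other. The depth above background of the dim genes is unknown and limits what their ratios can show.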
